A study of Mus musculus with 10 samples.

Results

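The clustered histone genes are the genes that encode the bulk histones H1, H2A, H2B, H3 and H4 in tandem clusters of the mouse genome. They were taken as every gene whose symbol in the deposited table starts with Hist1h, Hist2h, Hist3h or Hist4h. There were 65 of them among 37882 genes, with 6 for H1, 20 for H2A, 19 for H2B, 7 for H3 and 13 for H4. In the GENCODE annotation (release 21, build GRCm38), 49 lay on chromosome 13, 10 on chromosome 3, 3 on chromosome 11 and 1 on chromosome 6, and the other 2 (Hist1h2bh and Hist1h2bm) were not matched to it.

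RNA for 10 libraries came from orthotopic tumours of MCa-M3C, a mouse mammary carcinoma line, grown in FVB/N hosts. Treatment started from a volume of about 100 mm3. The tumours behind 5 libraries received the angiotensin receptor blocker valsartan in the TMA-ARB form, a form made to act in the tumour microenvironment. The dose was 40 mg/kg intravenously (retro-orbitally) every day for 6 days. The tumours behind the 5 control libraries received the same volume of PBS by the same route. Whether every library is its own mouse is not in the labels, and the spread behind each p-value may therefore be technical. Values are CPM, the usual counts scaled for depth, on a library size adjusted by the trimmed mean of M values (TMM).

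Most clustered histone genes are transcribed in S phase, when newly replicated DNA is packed into nucleosomes. H2A, H2B, H3 and H4 form the nucleosome core and H1 binds the linker DNA. Their mRNAs are unusual in ending in a conserved stem-loop, bound by the protein Slbp, in place of a poly-A tail. Poly-A selection, which was used here, therefore keeps such mRNAs poorly, and transcripts that run on past the stem-loop to a poly-A site are kept better.

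A stem-loop match was found in the annotated transcripts of 41 of the 63 matched genes (65.1%), against 95 of 21842 other genes with a protein-coding transcript (0.435%). The letters searched, on the transcript strand, were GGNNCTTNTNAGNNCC. The sequences below are shown for 1 member of each type that has a match and for a further H4 gene, Hist4h4, to compare the stem arms. Capitals mark the 16-base match and each is in DNA letters, 5′ to 3′, from GENCODE release 21.
Hist1h1c: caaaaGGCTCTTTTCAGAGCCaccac
Hist1h2ao: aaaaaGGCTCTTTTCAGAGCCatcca
Hist1h2be: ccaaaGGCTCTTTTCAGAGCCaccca
Hist2h3c2: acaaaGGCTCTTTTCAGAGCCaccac
Hist1h4i: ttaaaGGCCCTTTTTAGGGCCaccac
Hist4h4: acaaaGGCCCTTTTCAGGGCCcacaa

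The first arm of the stem read GGCTC in all 29 matches among H1, H2A, H2B and H3 genes. It read GGCCC in 10 of the H4 matches and GGTCC in the other 2. The element of Hist1h1c lies at chr13:23739512-23739527 on the plus strand, and that of Hist1h4i at chr13:22040966-22040981 on the minus strand. The annotated transcript went on for 840 bases after the stem-loop in Hist1h1c, 330 in Hist1h4i, 377 in Hist2h3c2, 1861 in Hist1h2be and 2445 in Hist4h4. It ended 31 bases after the stem-loop in Hist1h2ao.

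The 65 genes held 49308 counts over the 10 libraries. Their share of a library ran from 0.0205% (95% exact Clopper-Pearson interval 0.0198 to 0.0213) in TMA-ARB 6 to 0.0476% (0.0465 to 0.0487) in TMA-ARB 8. The intervals cover counting error only. Library totals ran from 12742953 to 16884621 counts, and 3 counts corresponded to 0.168 to 0.308 CPM. Hist2h2aa2, Hist1h2ba and Hist3h2ba had 0 counts in all libraries. All 31-base words of Hist2h2aa1 also occur in Hist2h2aa2, so its 0 and the 2063 counts of Hist2h2aa1 cannot be told apart. All of them occur as well in Gm20634, a gene outside the set, so a sum of the 2 does not settle the assignment. GENCODE gives the names Hist2h2aa1 and Hist2h2aa2 the other way round than the table, which was matched by identifier.

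The counts were concentrated in few genes. Hist1h1c, which encodes a linker histone expressed in most tissues, held 36.9% of them, Hist1h2ao (H2A) 19.6% and Hist1h2bc (H2B) 16%. Divided by the length of the longest annotated transcript, the order of mean levels was Hist1h2ao with 145 CPM per kilobase, Hist1h1c with 79.4, Hist1h2bc with 47.6, the H2A pseudogene Hist1h2al with 28.9, Hist2h2aa1 (H2A) with 27.5, Hist1h2aa (H2A) with 17.5 and Hist1h4i (H4) with 12.1. The highest of the H3 genes in the set, Hist2h3c2, reached 1.36 CPM per kilobase.

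By the 3′ end of the transcript model, 20 genes whose annotation runs more than 100 bases past the stem-loop held 47% of the counts. Another 20 genes that end at the stem-loop held 26.3%, most of it Hist1h2ao. Hist1h2bc, Hist1h2bq, Hist1h2br, Hist1h2bp and Hist2h2be have a transcript model that ends elsewhere and held 17.3%. Hist1h2bp also has a model that ends 38 bases after a stem-loop match. Annotations that stop near the stop codon (14 genes) held 5.25%, and 4 genes without an annotated coding sequence held 4.02%. The 3 leading genes thus fall in 3 classes, since Hist1h1c runs past its stem-loop, Hist1h2ao ends at it and the transcript of Hist1h2bc, which has 2 exons, holds no match.

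The first question was whether the histone RNA differed between treated and control tumours. Summed over all 65 genes it averaged 332 ± 29.2 CPM in controls and 350 ± 145 CPM under TMA-ARB (SD, n = 5 each), a log2 ratio of the means of 0.075. The control libraries 1 to 5 had 344, 302, 358, 357 and 300 CPM. TMA-ARB 6 to 10 had 171, 244, 510, 474 and 353 CPM. The group ranges overlapped. On this scale the controls lay between a low pair (TMA-ARB 6 and 7) and a high pair (TMA-ARB 8 and 9) of treated libraries. By share of total counts, TMA-ARB 9 was not high, at 0.0363% within the control range of 0.0319% to 0.0369%. TMA-ARB 8 was still above that range at 0.0476%, and TMA-ARB 6 and 7 were below it at 0.0205% and 0.0239%. TMM lowered the library size of TMA-ARB 9, with 25% mitochondrial counts, from 12742953 to 9755616. The coefficient of variation of the summed CPM was 8.79% in controls and 41.4% under TMA-ARB, a difference that was not tested.

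**Figure D1:**
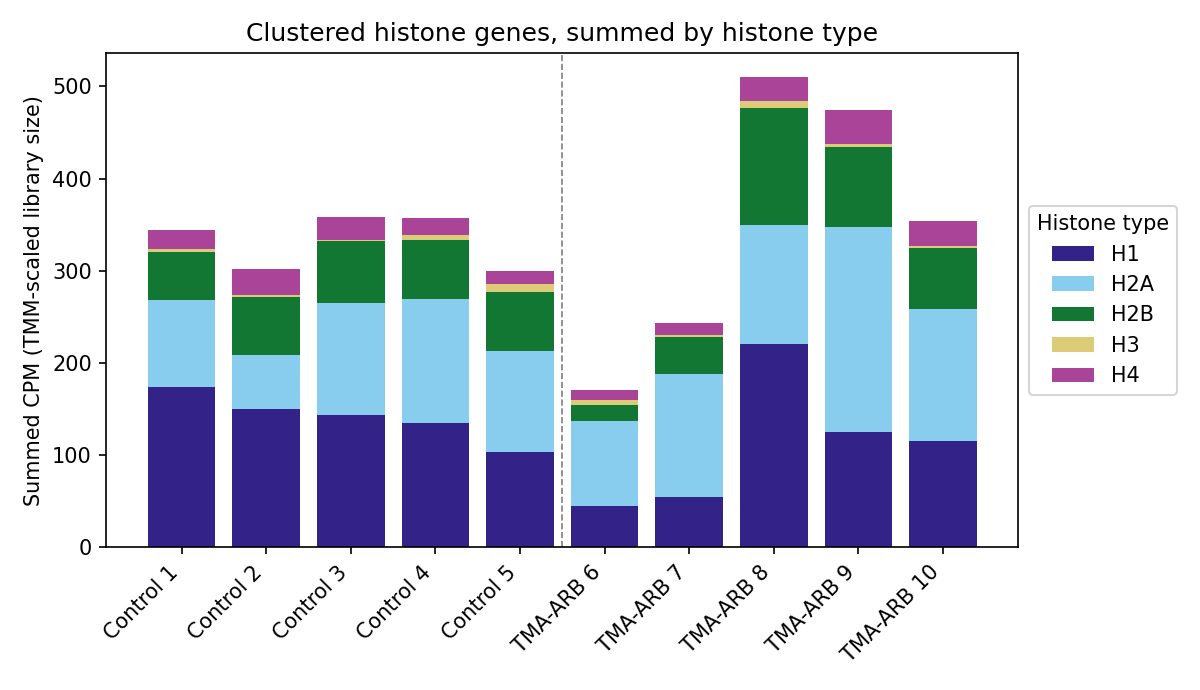
Summed CPM of the clustered histone genes in each library (bars, x axis), stacked by histone type, with the 5 control libraries left of the dashed line. Control sums lie between 300 and 358 CPM, while the TMA-ARB libraries run from 171 to 510 CPM.

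No clustered histone gene was called between the groups by the quasi-likelihood test of edgeR. Of the 65 genes, 22 had enough counts to be tested, 2 for H1, 8 for H2A, 6 for H2B, 2 for H3 and 4 for H4. At a Benjamini-Hochberg adjusted p under 0.05, 0 of the 22 were called, beside 0% of all 14063 genes tested. At an unadjusted p under 0.05, 0 were higher, where the share among all genes was 1.59%, and 2 were lower (Hist1h2br and Hist1h2al), where it was 1.66%. DESeq2 called 1 histone gene, Hist1h2br, beside 0.00837% of all genes (2 of 23897), with 6 of 60 histone genes at an unadjusted p under 0.05, beside 3.46% of all genes. Of these, Hist1h2ao and Hist1h2ah were higher, and Hist1h2br, Hist1h2al, Hist1h2ab and Hist2h3c2 were lower. Hist1h2ab and Hist1h2ah had counts in only 4 and 3 libraries and did not pass the edgeR filter. In edgeR, the log2 fold change was positive for 13 and negative for 9 of the 22. The median of the 22 was 0.161, beside 0.021 for all genes.

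**Figure D2:**
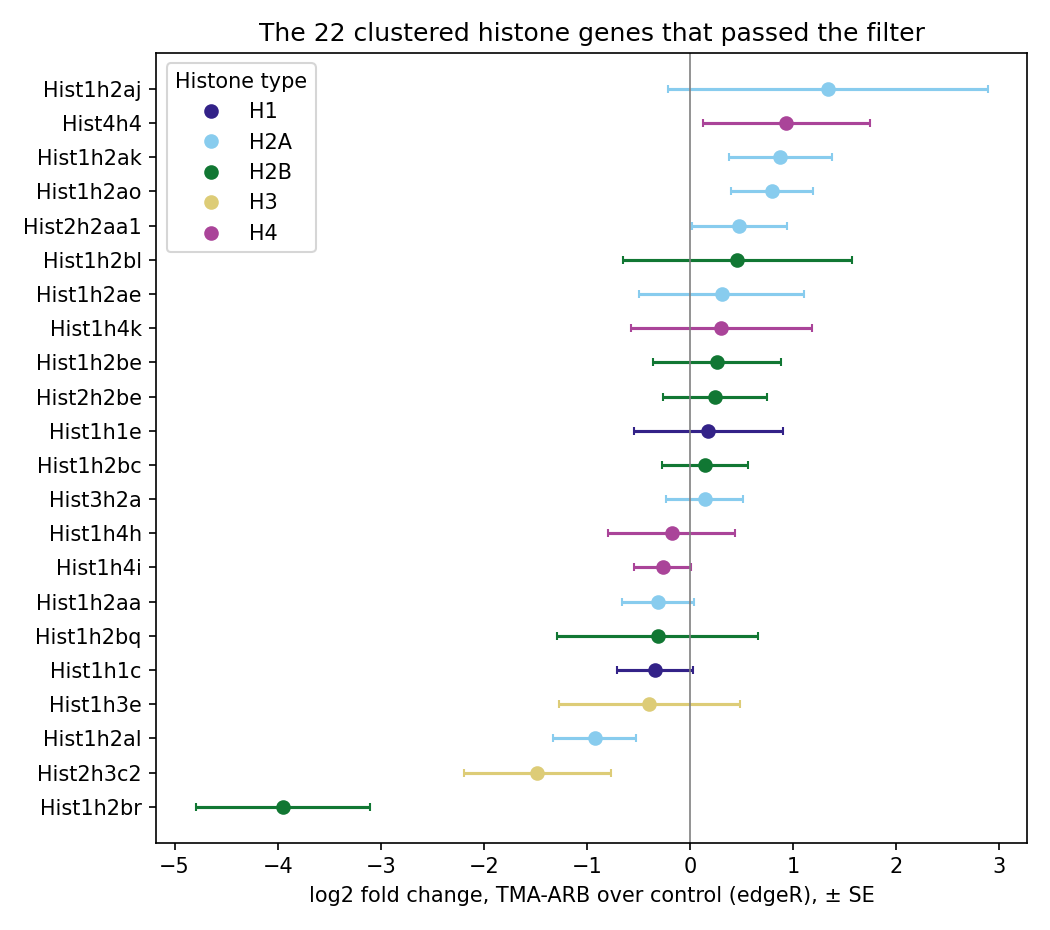
Log2 fold changes of TMA-ARB over control (x axis, points) with standard errors (bars) for the clustered histone genes that passed the low-count filter (y axis), coloured by histone type. Hist1h2br lies lowest at -3.95, and 13 of the 22 lie above 0.

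The linker histone counts were nearly all from Hist1h1c, with 18188 of 18575. Its 5 control values were 170, 146, 142, 134 and 101 CPM, and TMA-ARB 6 to 10 had 43.8, 52.2, 217, 121 and 113 CPM. TMA-ARB 6 and 7 lay below every control and TMA-ARB 8 above every control. In edgeR the log2 fold change was -0.34 ± 0.37 (SE; adjusted p = 0.997). It was -0.75 without TMA-ARB 8, -0.13 without TMA-ARB 6, -0.16 without TMA-ARB 7 and -0.86 with the log2 mitochondrial share in the model. All H1 genes together averaged 141 ± 25.5 CPM in controls and 112 ± 70.3 CPM under TMA-ARB (SD, n = 5 each).

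The other H1 genes were low. Hist1h1e, which passed the filter, averaged 1.05 ± 0.71 CPM in controls and 1.21 ± 1.11 CPM under TMA-ARB (SD, n = 5 each). Hist1h1b, which did not pass, averaged 0.434 ± 0.231 and 0.624 ± 0.718 CPM. Hist1h1t, the H1 of the testis, had 2 counts in all libraries together. Hist1h1e overlaps the long annotated span of Hist1h2be on the same strand, so their reads cannot be fully told apart.

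Among the H2A genes, Hist1h2ao was the highest. Only 6.2% of its 31-base words are found in no other gene, so its reads cannot be fully told apart from those of other H2A genes. The control libraries had 43.7, 13.9, 65.4, 77.8 and 53.5 CPM, and TMA-ARB 6 to 10 had 63, 71.7, 63.5, 157 and 86.8 CPM. Control 2 was the lowest and TMA-ARB 9 the highest, and the groups overlapped between 63 and 77.8 CPM. This gave a log2 fold change of 0.80 ± 0.40 (SE; edgeR adjusted p = 0.997), which was 0.50 without TMA-ARB 9 and 0.42 with the log2 mitochondrial share in the model.

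The H2A sum averaged 104 ± 29.1 CPM in controls and 144 ± 47.7 CPM under TMA-ARB (SD, n = 5 each; log2 ratio 0.474). Without Hist1h2ao it was 52.7 ± 5.06 and 55.6 ± 15 CPM, a log2 ratio of 0.076. The share of H2A in the histone counts averaged 30.9% ± 7.54 and 44.3% ± 12.1, and that of H1 42.5% ± 7.18 and 30.1% ± 8.21 (SD, n = 5 each). Both shares overlapped between the groups.

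Hist1h2al, annotated as a processed pseudogene at chr13:51202727-51203065, had the smallest edgeR p among the 8 H2A genes tested. Its controls had 17, 10.5, 11.4, 13.8 and 11.6 CPM, and TMA-ARB 6 to 10 had 4, 3.62, 11.4, 2.67 and 12.1 CPM. Low values of 4 CPM or less came in 3 of the 5 treated libraries, while TMA-ARB 8 and 10 lay within the control range. Its log2 fold change of -0.93 ± 0.40 did not pass (SE; edgeR adjusted p = 0.997). Of its 31-base words, 79.9% also occur in Hist2h2aa1 and in Gm20634. The log2 fold change of Hist2h2aa1 was 0.48 ± 0.46 (SE; edgeR adjusted p = 0.997) and turned to -0.44 with the log2 mitochondrial share in the model.

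Hist1h2ak, another H2A gene, had 4.27, 0.785, 4.45, 1.22 and 4.55 CPM in controls and 7.03, 8.75, 3.47, 4.92 and 3.85 CPM in TMA-ARB 6 to 10. The values overlapped, with a log2 fold change of 0.88 ± 0.50 (SE; edgeR adjusted p = 0.997). Only 30% of the 31-base words of Hist1h2ak are found in no other gene. Hist1h2aa is a testis-type H2A. It nevertheless took 1007 counts in all and was seen in each library, with 88.3% of its 31-base words found in no other gene. Its divergent neighbour Hist1h2ba, the testis-type H2B, had none.

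The H2B genes were led by Hist1h2bc. The control values were 37.6, 53, 58.4, 57.8 and 54.5 CPM, and those of TMA-ARB 6 to 10 were 14.1, 31.5, 111, 77.2 and 55.3 CPM. As for Hist1h1c, TMA-ARB 6 and 7 lay below every control, and here both TMA-ARB 8 and 9 lay above every control. Between the groups the log2 fold change was 0.15 ± 0.42 (SE; edgeR adjusted p = 0.997), and it turned to -0.235 without TMA-ARB 8 and to -0.63 with the log2 mitochondrial share in the model. The H2B sum averaged 62 ± 5.77 and 67.3 ± 41.8 CPM (SD, n = 5 each), with coefficients of variation of 9.31% and 62.2%.

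**Figure D3:**
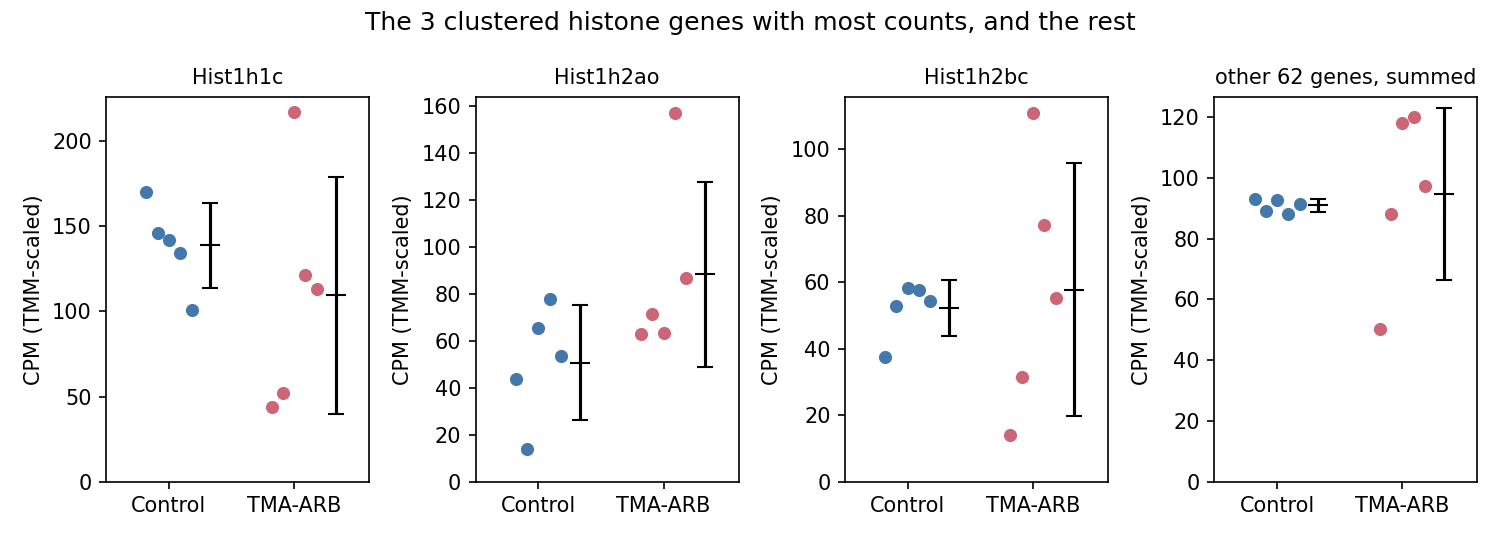
CPM (y axis, from 0) of Hist1h1c, Hist1h2ao, Hist1h2bc and the sum of the other 62 clustered histone genes, with 1 point per library and the group mean ± SD beside the points. The sum of the other genes keeps to 88.2 to 93.1 CPM in controls and spreads from 50.4 to 120 CPM under TMA-ARB.

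The other 62 genes summed to 90.9 ± 2.16 CPM in controls and 94.7 ± 28.2 CPM under TMA-ARB (SD, n = 5 each). The coefficients of variation were 2.38% and 29.8%, and the latter was 14.7% without TMA-ARB 6. Here TMA-ARB 6 alone lay low, at 50.4 CPM, while TMA-ARB 7 had 88.2 CPM, at the edge of the control range. For the sum over all 65 genes the treated value of 41.4% was 30.7% without TMA-ARB 6.

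Hist1h2br, an H2B gene at chr13:21833743-21837530, was the 1 histone gene whose groups did not overlap, lower under TMA-ARB, beside 0.363% of all genes tested in that direction. None of the 22 was separated in the other direction, beside 0.164%. The controls had 2.76, 0.729, 1.37, 2.15 and 1.46 CPM, and TMA-ARB 6 to 10 had 0.121, 0, 0.295, 0.103 and 0 CPM. In counts that is 13 to 42 per control library and 0 to 4 per treated library. Hist1h2br thus passed the low-count filter through the control libraries alone. A gene admitted that way tends to look lower in the other group, so its separation is description only. By edgeR the log2 fold change was -3.95 ± 0.85 (SE; adjusted p = 0.997), and by DESeq2 it was -4.04 ± 0.86 (adjusted p = 0.0327).

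Hist1h2br shares most of its sequence with a second gene. Of the 31-base words of Hist1h2br, 89.5% occur in Hist1h2bq at chr13:21806612-21810197, and 98.3% of those of Hist1h2bq occur in Hist1h2br. Hist1h2bq had 3.35, 0.841, 3.86, 0 and 0.364 CPM in controls and 0.242, 0.461, 3.25, 0.718 and 2.09 CPM under TMA-ARB, which overlapped (log2 fold change -0.31 ± 0.98, SE; edgeR adjusted p = 0.997). The counting gave Hist1h2bq between 0% and 73.8% of the pair's counts in controls and between 66.7% and 100% under TMA-ARB.

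Summed, the pair had 6.11, 1.57, 5.23, 2.15 and 1.82 CPM in controls and 0.363, 0.461, 3.55, 0.82 and 2.09 CPM under TMA-ARB. TMA-ARB 8 and 10 fell inside the control range. With near-identical pairs summed before the fit, an alternative chosen after seeing the data, the log2 fold change of the pair was -1.21 ± 0.67 (SE; edgeR adjusted p = 0.997). DESeq2 then gave an adjusted p of 0.995. In refits also added after seeing the data, the DESeq2 call of Hist1h2br alone was lost on leaving out any 1 library other than TMA-ARB 6 or 8, with adjusted p up to 0.346 (without control 1). Its log2 fold change stayed between -4.96 and -3.70 over all 10 such refits.

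**Figure D4:**
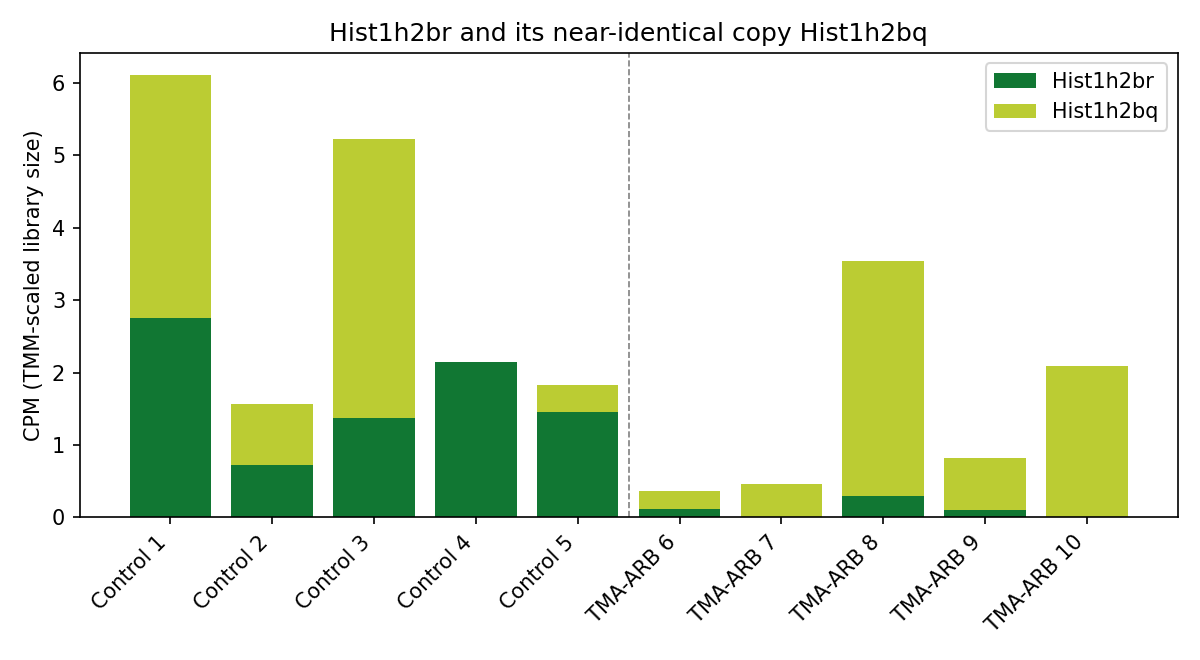
CPM of Hist1h2br and of its near-identical copy Hist1h2bq in each library (x axis), stacked so that the bar height is the pair's sum. Hist1h2br is at 0 to 0.295 CPM under TMA-ARB, while the sums of TMA-ARB 8 and 10, 3.55 and 2.09 CPM, lie inside the control range of 1.57 to 6.11 CPM.

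The promoter windows of the pair were also alike. In the RefSeq table (GRCm38.p6, from 250 bases before to 50 after the start), the windows of Hist1h2bq and Hist1h2br were the same at 300 of 300 positions. The window of Hist1h2bq, chr13:21810150-21810449 on the minus strand, is printed with its 3 CCAAT matches (both strands, so also ATTGG) in capitals, since it faces Hist1h2ao across a gap of 267 bases.
Hist1h2bq: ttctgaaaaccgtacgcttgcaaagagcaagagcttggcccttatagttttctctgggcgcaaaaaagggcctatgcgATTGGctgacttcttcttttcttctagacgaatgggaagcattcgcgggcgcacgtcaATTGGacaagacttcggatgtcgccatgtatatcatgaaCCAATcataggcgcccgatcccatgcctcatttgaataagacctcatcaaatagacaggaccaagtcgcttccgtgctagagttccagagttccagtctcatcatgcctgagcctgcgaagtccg

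Across this gap Hist1h2ao averaged 69.6 CPM and Hist1h2bq 1.52 CPM. The copy of the arrangement, Hist1h2ap facing Hist1h2br across 235 bases, had 0.816 and 0.899 CPM. All of the counts of Hist1h2ao and Hist1h2ap went to Hist1h2ao except in TMA-ARB 7, where it received 89.8%. Of the 31-base words of Hist1h2ao, 93.8% occur in Hist1h2ap, 73.8% in Hist1h2ag and 68.2% in Hist1h2ad. Its counts therefore cannot be fully assigned to the gene or to the pair. Unequal levels were also seen for Hist1h2ac and Hist1h2bc, with 0.475 and 55 CPM across 250 bases.

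Promoter letters differed by type. CCAAT on either strand was found in 46 of the 55 histone promoters in the RefSeq table (83.6%) and in 41% of 26970 other promoters. It was in all promoters of H1, H2A, H2B and H3 genes but in 3 of 12 H4 promoters. TATAAA on the sense strand was in 27 of 55 (49.1%), against 9.69% of the others. The octamer ATTTGCAT on either strand was in 7 of 18 H2A and 5 of 13 H2B promoters and in none of the H1, H3 or H4 promoters, against 1.93% of the others. These are letter matches and not tests of binding.

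The H3 genes held 1.26% of the histone counts, at 4.25 ± 2.98 CPM in controls and 4.06 ± 2.29 CPM under TMA-ARB (SD, n = 5 each, summed over 7 genes). GENCODE also names the H3 genes Hist1h3f and Hist1h3h, which are not in the set, so these values do not cover every H3 gene. Hist2h3c2 had 1.97, 1.4, 0.915, 2.3 and 3.7 CPM in controls and 0.908, 0.461, 0.739, 0 and 1.49 CPM in TMA-ARB 6 to 10. All but TMA-ARB 10 lay below the control range. Here the log2 fold change was -1.48 ± 0.71 (SE; edgeR adjusted p = 0.997). Of the 31-base words of Hist2h3c2, 64.2% also occur in its neighbour Hist2h3c1 and in Gm20634, so their reads cannot be fully told apart. Hist2h3c1, all of whose 31-base words occur in Gm20634, had counts in 4 libraries. These were control 5 with 4.12 CPM and TMA-ARB 6, 7 and 8 with 2.3, 0.197 and 5.39 CPM. A sum of the 2 genes was not fitted. Hist1h3e, the other H3 gene tested, had 0.735 ± 0.754 CPM in controls and 0.547 ± 0.325 CPM under TMA-ARB (SD, n = 5 each).

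The H4 sum averaged 21.4 ± 5.19 CPM in controls and 23.2 ± 10.8 CPM under TMA-ARB (SD, n = 5 each). Hist1h4i, the highest H4 gene per kilobase, had 11.6, 14.9, 7.85, 6.17 and 7.4 CPM in controls and 6.18, 8.55, 7.9, 9.53 and 7.77 CPM in TMA-ARB 6 to 10. The treated values lay inside the control range, and the log2 fold change was -0.27 ± 0.28 (SE; edgeR adjusted p = 0.997). Hist4h4, the lone gene of the set on chromosome 6, had 2.3, 1.35, 8.3, 4.38 and 0.789 CPM in controls and 1.94, 0.855, 2.59, 16.8 and 10.7 CPM under TMA-ARB. TMA-ARB 9 and 10 lay above every control, with a log2 fold change of 0.93 ± 0.81 (SE; edgeR adjusted p = 0.997). It was 0.24 without TMA-ARB 9 and -0.45 with the log2 mitochondrial share in the model.

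The genes that work with the clustered histones were read from the same fit, and none of the lists held a called gene. The S phase list had a positive fold change for 37 of its 38 tested members (median 0.275), beside 7428 of all 14063 genes. Among them 2 were higher at an unadjusted p under 0.05, beside 1.59% of all genes, Prim2 (DNA primase, 0.54 ± 0.22) and Pole (DNA polymerase epsilon, 0.61 ± 0.28). Gins3, of the replicative helicase complex, was at 0.95 ± 0.46 (log2 ± SE) and did not pass. Summed, the S phase list had 3135 and 3219 CPM in TMA-ARB 6 and 7. TMA-ARB 8, 9 and 10 had 1360, 2073 and 1711 CPM, inside the control range of 1352 to 2373 CPM. Of 27 genes for the transcription and processing of histone mRNA, 1 was higher at an unadjusted p under 0.05, beside 1.59% of all genes. It was Cdk2 at 0.39 ± 0.18 (log2 ± SE), the kinase that with cyclin E activates Npat. Ccne2, a cyclin E gene, was at 0.94 ± 0.48, and Snrpd3, a spliceosomal Sm protein also found in the U7 particle that cuts histone mRNA, at 0.37 ± 0.21. Slbp, which binds the stem-loop, was at 0.24 ± 0.24, and Npat, the coactivator of histone transcription, at 0.04 ± 0.22. The 21 chaperones (median 0.079) and the 11 tested replication-independent variants (median -0.035) had 0 at an unadjusted p under 0.05, beside 3.25% of all genes. The chaperone genes of smallest p were Tonsl at -0.31 ± 0.16, Chaf1b at 0.35 ± 0.24 and Asf1a at 0.37 ± 0.25 (log2 ± SE).

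The variants replace the clustered histones outside S phase. Their sum ran from 2060 to 3236 CPM in controls and from 2220 to 3919 CPM under TMA-ARB. H3f3a, a gene for H3.3, had a log2 fold change of 0.51 ± 0.30 and H2afz, for H2A.Z, 0.38 ± 0.31 (SE; edgeR adjusted p = 0.997 for both). H1fx, a linker variant, was at -0.44 ± 0.33.

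The histone sum and the S phase sum were set side by side for each library. The 2 libraries with the lowest histone sums, TMA-ARB 6 and 7, had the 2 highest S phase sums, 3135 and 3219 CPM. Controls ran from 1352 to 2373 CPM, and TMA-ARB 8, with the highest histone sum, had 1360 CPM. Other libraries broke this order, as control 2, with a histone sum of 302 CPM, had the lowest S phase sum of 1352 CPM, and TMA-ARB 9, with 474 CPM, had 2073 CPM. In bulk tissue, fewer cells of a type and less RNA per cell cannot be told apart.

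Other RNAs that are made without a poly-A tail were low in the same libraries as the histones. The list had 28 genes, of which the signal recognition particle RNA genes named Metazoa_SRP gave the largest part. For 2 of these the deposited counts were identical in every library and were counted once, which left 27 genes. The 4 libraries with the lowest histone sums were the 4 with the lowest sums of these RNAs, at 15.3 CPM in TMA-ARB 6, 21.8 in TMA-ARB 7, 25.5 in control 5 and 27.2 CPM in control 2. The other libraries had 36.3 to 155 CPM. At the top the order differed, since control 4 had 155 CPM and a histone sum of 357 CPM. Of the 7 genes tested, 0 had an unadjusted p under 0.05, beside 3.25% of all genes (median log2 fold change of the 7 -0.288). Those of smallest p were Snora73b at 1.00 ± 0.52, Snora73a at -0.29 ± 0.55 and the U3 RNA gene listed as ACEA_U3 at -0.47 ± 0.95 (log2 ± SE). The part of these RNAs in the histone result was not tested.

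**Figure D5:**
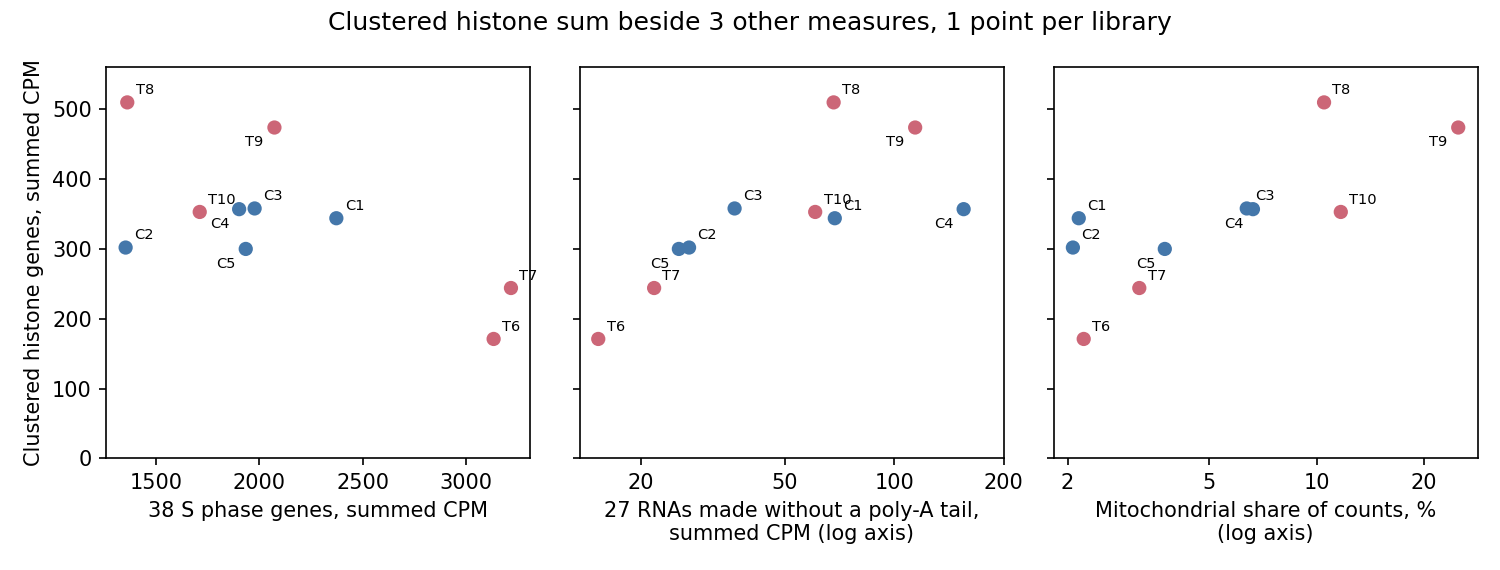
Summed clustered histone CPM (y axis) against the summed CPM of 38 S phase genes, the summed CPM of 27 RNAs made without a poly-A tail and the mitochondrial share of counts (x axes, the last 2 logarithmic), with 1 point per library (blue, C, control; red, T, TMA-ARB). TMA-ARB 6 and 7 combine the lowest histone sums, 171 and 244 CPM, with the highest S phase sums.

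The mitochondrial share of counts also moved with the treated libraries. It was 2.22% and 3.18% in TMA-ARB 6 and 7, and 10.5%, 25% and 11.7% in TMA-ARB 8, 9 and 10, against 2.07% to 6.63% in controls. Of 13 mitochondrial genes, 9 were higher at an unadjusted p under 0.05, beside 1.59% of all genes, and 0 passed adjustment, with mt-Nd3 at 1.65, mt-Nd4l at 1.88 and mt-Nd4 at 1.83 (log2 fold change). Controls 1 and 2, whose shares of 2.15% and 2.07% were as low as that of TMA-ARB 6, had histone sums of 344 and 302 CPM. With the log2 share as a covariate the median log2 fold change of the 22 histone genes was -0.43, and that of all genes -0.003. The part of the mitochondrial share in the histone result was otherwise not tested.

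Leaving out TMA-ARB 8, 9 and 10 for their mitochondrial share, a choice made after seeing the data, keeps on the treated side TMA-ARB 6 and 7, the libraries already given as lowest. The log2 ratio of the histone sum of -0.68 in that setting restates their low values.

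Cell type markers were read beside these sums. Of 6 tested epithelial markers (8 listed), 5 had a positive fold change and 2 were higher at an unadjusted p under 0.05, beside 1.59% of all genes, and none passed adjustment. Their sum ran from 84.5 to 160 CPM in controls and from 106 to 240 CPM under TMA-ARB, with Krt18 holding most of it. Epcam averaged 1.96 CPM in controls and 3.31 CPM under TMA-ARB, but its medians were 1.43 and 0.82 CPM, with a treated maximum of 12.1 CPM. Cldn4 had a median of 0 in both groups.

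All 8 tested leukocyte markers (10 listed) had a negative fold change, with 1 lower at an unadjusted p under 0.05, beside 1.66% of all genes. Their sum ran from 296 to 589 CPM in controls and from 239 to 472 CPM under TMA-ARB. The 5 erythroid markers were all negative (median log2 fold change -0.787), as were the 3 tested skeletal muscle markers (median -1.586). Of the latter, 1 was lower at an unadjusted p under 0.05, beside 1.66% of all genes. Fibroblast markers (5 genes) summed to 4052 to 5086 CPM in controls and 4215 to 4782 CPM under TMA-ARB. The part of these cells in the histone values was not tested.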

How the data were processed

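The authors deposited estimated counts for 37882 genes in 10 libraries, made with Salmon on mm10 per the submitters' processing notes. The Salmon version and transcript annotation are not given in the sources used here. The labels' protocols state poly-A selection and a directional library kit. All values were whole (0 were not), and 0 columns were left unmatched.

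The 2 groups of 5 were compared with edgeR 4.0.16 (R 4.3.3) by its quasi-likelihood F test with TMM scaling, the default low-count filter and Benjamini-Hochberg adjustment over 14063 genes at 0.05. The SE was the absolute log2 fold change over the square root of F. Other settings used DESeq2 1.42.0, which left 84 genes with counts untested, limma 3.58.1 voom with sample weights, RLE scaling, other filters, mitochondrial corrections and leaving out libraries. Sums took counts before the filter and got no test. Sharing was counted over 31-base words of GENCODE release 21 transcripts, with a near-identical pair sharing at least 85% both ways. The edgeR step was tested on simulated data. Figures used Python and matplotlib.

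The histone genes and the lists were chosen with earlier results of these data known. Named genes were those called by either tool, the 4 of smallest p in each direction, the 3 highest per kilobase of each type, and the 3 of smallest p of each related list with Slbp and Npat. Hist1h2aa, Hist1h2ba, Hist1h1t and pair partners were named after their values were seen.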

Additional observations from a re-analysis of the deposited data

Results flagged for a closer look

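Of 48 groups of 5 libraries checked for a value standing far from the others (sums and named histone genes in each group), 3 were picked out, where chance picks about 5% of groups. Hist1h2ao reached 157 CPM in TMA-ARB 9, with the next treated library at 86.8 CPM. Hist1h2bc was at 37.6 CPM in control 1, with the next control at 53 CPM. Hist2h3c1 was at 4.12 CPM in control 5 and at 0 in the other controls.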

How the results depend on the processing

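Leaving out each library in turn, edgeR called 0 genes throughout. In these refits 1 to 3 histone genes had an unadjusted p under 0.05, beside 1.56% to 8.5% of all genes. The count of histone genes was 1 without control 1 and without TMA-ARB 6, 7 or 9. DESeq2 called 2 genes of the table and had 6 histone genes at an unadjusted p under 0.05, of 60 it tested, beside 3.46% of all genes. That number was 5 of 62 without the filter (5.97% of all genes), 1 of 8 with a mean of at least 5 CPM (3.58%), 1 of 22 with near-identical pairs summed (3.24%) and 8 of 32 without TMA-ARB 8, 9 and 10 (10.8%). The last 2 settings were chosen after seeing the data.

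The median log2 fold change of the histone genes was -0.429 with the log2 mitochondrial share in the model and -0.872 without TMA-ARB 8, 9 and 10. It ran from -0.248 (without TMA-ARB 8) to 0.351 (without TMA-ARB 6). Without TMA-ARB 8, 9 and 10, which leaves the 2 treated libraries of lowest histone sum, the log2 ratios of the sums were -0.678 for all genes, -1.503 for H1, -1.099 for H2B and -0.789 for H4. With single libraries left out they stayed within the spread between libraries, from -0.097 (without TMA-ARB 8) to 0.253 (without TMA-ARB 6) for all genes.

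With the covariate the log2 fold change turned to -0.449 for Hist4h4, -0.441 for Hist2h2aa1, -0.417 for Hist1h1e, -0.634 for Hist1h2bc and -0.282 for Hist1h2be. Without TMA-ARB 8, 9 and 10 it turned to -1.273 for Hist4h4, -1.069 for Hist2h2aa1, -1.460 for Hist1h1e, -1.198 for Hist1h2bc, -0.227 for Hist1h2bl, -1.486 for Hist1h2be, -0.405 for Hist1h4k, -0.067 for H3f3a, -0.307 for Snora73b, -0.436 for mt-Nd4l and -0.447 for mt-Nd4. With limma-voom it turned to 0.426 for Hist1h3e, 0.150 for Snora73a, 1.409 for ACEA_U3 and -0.207 for Npat. The cause was not tested.

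With 1 library left out, the log2 fold change spanned 0 for Hist1h1e (-0.487 to 0.579), Hist1h2bc (-0.235 to 0.401), Hist1h2be (-0.304 to 0.532), Hist1h3e (-0.724 to 0.413), Hist1h4k (-0.147 to 0.623), Hist1h4h (-0.665 to 0.084), Snora73a (-0.467 to 0.078), ACEA_U3 (-0.875 to 0.019) and Npat (-0.052 to 0.161). None of these passed the test.

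No paired analysis was possible because the groups share no replicate numbers. The 43 histone genes that were not tested did not pass the low-count filter. For some of them, such as Hist2h2aa2, a near-identical copy held the counts. Reads divided among copies limit single genes more than sums. With poly-A selection, these values measure the histone RNA that was retained.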
